A study of Mus musculus with 14 samples.

Results

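The co-stimulatory and inhibitory receptors described here are 10 genes of CD4+ T-cells, chosen by name: Cd28, Ctla4, Pdcd1 and Btla of the CD28 family, Lag3, Havcr2 and Cd160 among the other inhibitory receptors, and Tigit, Cd226 and Cd96, which bind nectins and related ligands. They were read by the 17 array probes that carry these gene names, out of 56605 probes for 36870 gene names. Total RNA of CD4+ T-cells was read on 14 one-colour arrays, 7 of Roquin san/+ and 7 of wild-type animals, and no treatment, age or tumour state is given in the labels. Roquin san/+ mice carry 1 sanroque allele of Roquin, an RNA-binding protein that shortens the life of T-cell transcripts, next to 1 wild-type allele. The allele is present in every cell of the animal and not in CD4+ T-cells alone. The labels do not state that each array is a separate mouse, so p-values measure the spread between arrays.

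CD28 gives the T-cell its second signal when it binds CD80 or CD86 on an antigen-presenting cell, and CTLA-4 takes the same ligands away from it. PD-1, encoded by Pdcd1, BTLA, LAG-3, TIM-3, encoded by Havcr2, and TIGIT limit the response of a T-cell that has been stimulated. Some of them do so through phosphatases recruited to their tails or by competing for ligands. In lymph nodes PD-1 is a well known surface marker of follicular helper T-cells (Tfh), which help B-cells in germinal centres, and regulatory T-cells carry much CTLA-4 and TIGIT.

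The probes that carried the largest differences were those of Ctla4, Pdcd1, Lag3, Tigit and Havcr2, so the first 30 bases of each are shown in lower case, with nothing marked. Each probe is 60 bases long, and positions are those the array files give for mouse build mm9. The Ctla4 probe lies at chr1:60971801-60971860 on the plus strand, the Pdcd1 probe at chr1:95935064-95935123 on the minus strand, the Tigit probe at chr16:43649114-43649173 on the minus strand and the Havcr2 probe at chr11:46294650-46294709 on the plus strand. Lag3 had 2 probes on the minus strand, at chr6:124854570-124854866 and chr6:124859333-124859392. The first of them covers 297 bases of genome with 60 bases of probe, so its sequence is interrupted in the genome. No annotation of mm9 was used here, so the exon or untranslated region that each probe reads is not given.
Ctla4 probe 1: cttggaagcagcataaggatatagcattat
Pdcd1 probe 1: aaggaaagggggatataaccttgacgcaaa
Lag3 probe 1: ggagaaaacagttgctactgagaagatttt
Lag3 probe 2: gcctgtctacaactcaccgcgtcatttttt
Tigit probe 1: tttaatgtcctgagctacagaagcctagag
Havcr2 probe 1: ctaacaaaatccattagagataacagctct

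Ctla4, Pdcd1 and Tigit also varied together between the arrays, as described further on, and the 250 bases before their start sites are shown for that reason. They are RefSeq sequences of build GRCm38.p6, at chr1:60908775-60909024 on the plus strand for Ctla4, chr1:94052554-94052803 on the minus strand for Pdcd1 and chr16:43664185-43664434 on the minus strand for Tigit. Capitals mark GGAAA on either strand, the core that NFAT factors bind.
Ctla4 promoter: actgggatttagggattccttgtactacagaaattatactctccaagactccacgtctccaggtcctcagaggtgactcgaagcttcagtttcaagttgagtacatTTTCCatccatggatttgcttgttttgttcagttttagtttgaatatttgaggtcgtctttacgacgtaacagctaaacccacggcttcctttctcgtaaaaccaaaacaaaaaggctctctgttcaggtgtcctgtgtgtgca
Pdcd1 promoter: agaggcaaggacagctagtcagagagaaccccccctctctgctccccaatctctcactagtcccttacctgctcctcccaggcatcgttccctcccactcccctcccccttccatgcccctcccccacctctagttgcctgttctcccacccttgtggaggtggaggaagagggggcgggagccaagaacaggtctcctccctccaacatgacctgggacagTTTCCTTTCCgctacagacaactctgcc
Tigit promoter: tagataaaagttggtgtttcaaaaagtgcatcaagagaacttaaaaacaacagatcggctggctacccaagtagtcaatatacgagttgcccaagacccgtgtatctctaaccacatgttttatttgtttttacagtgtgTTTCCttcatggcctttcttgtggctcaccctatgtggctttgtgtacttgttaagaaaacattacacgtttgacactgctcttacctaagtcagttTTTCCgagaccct

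GGAAA was found in 5 of 8 promoters of the 7 receptor genes in the RefSeq table, which held both Cd160 promoters, and in 55.6% of all 32851 promoters of that length. It occurred 4 times before Cd96 and was not found before Btla, Havcr2 or at the other Cd160 start. CTTTGA, the core of TCF sites, was in 1 of the 8 and in 13.8% of all promoters, and the AP-1 form TGANTCA was in 1 of the 8, that of Havcr2, and in 6.75% of all. None of the 3 motifs is contained in another, and both strands were searched. The arrays hold no reading of binding at these places.

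Slide and genotype were linked in part: slide 1 held 5 arrays of Roquin san/+ and 2 of wild-type, and slide 2 held 2 and 5. The spots of replicate G of Roquin san/+ and of replicate E of wild-type had been read 2 grid rows away from their probe names and were moved back before any comparison. The processed signal of these 2 displaced arrays stops at a lowest value that 63.6% and 65.8% of their spots share. Havcr2 and Cd160 sat at that value on both, and so did Tigit, the dimmer Lag3 probe and the dimmer Cd28 probe on the displaced wild-type array. Well above background were 53.4% to 75.5% of probes on the 12 well-placed arrays. Roquin san/+ replicate F carried the highest level of 7 of 8 B-cell genes, 7 of 9 myeloid genes and 5 of 6 NK-cell genes of all 14 arrays. Both CD8 T-cell genes were also highest on it, with a summed log2 level of 1.25 against -2.15 or lower elsewhere. For erythroid markers it stood at 6.57, against 5.41 or lower elsewhere. Roquin san/+ replicate C reached the same summed log2 level of myeloid markers, 6.68, but in part through other genes. The 7 myeloid genes highest on replicate F, with Lyz2 at 4.78 and S100a9 at 5.31 there, were lower on replicate C. Only Itgam and Csf3r can have made up for these in the sum of replicate C. Csf3r had the highest mean of the list in Roquin san/+, at 4.16. For dendritic cell markers replicate C stood at 6.21, against 3.70 or lower on every other array. That sum reads Siglech almost alone, with a mean of 3.60 in Roquin san/+ against -5.13 or lower for the other genes of the list. The processed signal of replicate C was weak, at 516 for Cd28 against 2444 or higher elsewhere. Its lowest level well above background was -6.20, against -8.02 or lower on the other well-placed arrays. The dimmer Cd28 probe was highest of all 14 arrays on replicate C, at -3.96, while the brighter was at -0.63 there. The dimmer Btla probe was not highest there, at -2.59. All 7 T-cell markers, Cd4 and the Cd3 chains among them, passed the detection filter.

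Levels are log2 of the processed signal less the 75th percentile of each array, so 0 is a bright probe. Levels of different genes cannot be set against each other, because each probe binds with its own strength. A probe was tested if it was well above background on at least 6 of the 12 well-placed arrays whatever their genotype. All 17 receptor probes met this, as did 32831 probes in all. Differences are Roquin san/+ minus wild-type, with the standard error (SE) of the limma fit. Where a gene had several probes, the brightest stands for the gene.

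Of the 17 receptor probes 0 passed limma's test at an adjusted p of 0.05, and the share over all probes was 0.0%. Before adjustment 1060 probes of 32831 had a p below 0.05, 968 of them higher (2.95%) and 92 lower (0.28%) in Roquin san/+. The split depends on the scaling, at 423 higher and 366 lower with quantile normalization and 566 and 426 with the 75th percentile taken over all probes. Of the receptor probes 3 had an unadjusted p below 0.05, those of Lag3, Tigit and Havcr2, all higher in Roquin san/+, and none was lower at that level. The mean was higher in Roquin san/+ for 10 of the 17 probes and for 6 of the 10 genes, against 63.4% of all probes tested. A difference of at least 0.6 was reached by 5 genes, Ctla4, Pdcd1, Lag3, Tigit and Havcr2, against 16.0% of all probes. The median difference was 0.50 over the 10 genes and 0.10 over all probes tested.

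**Figure D1:**
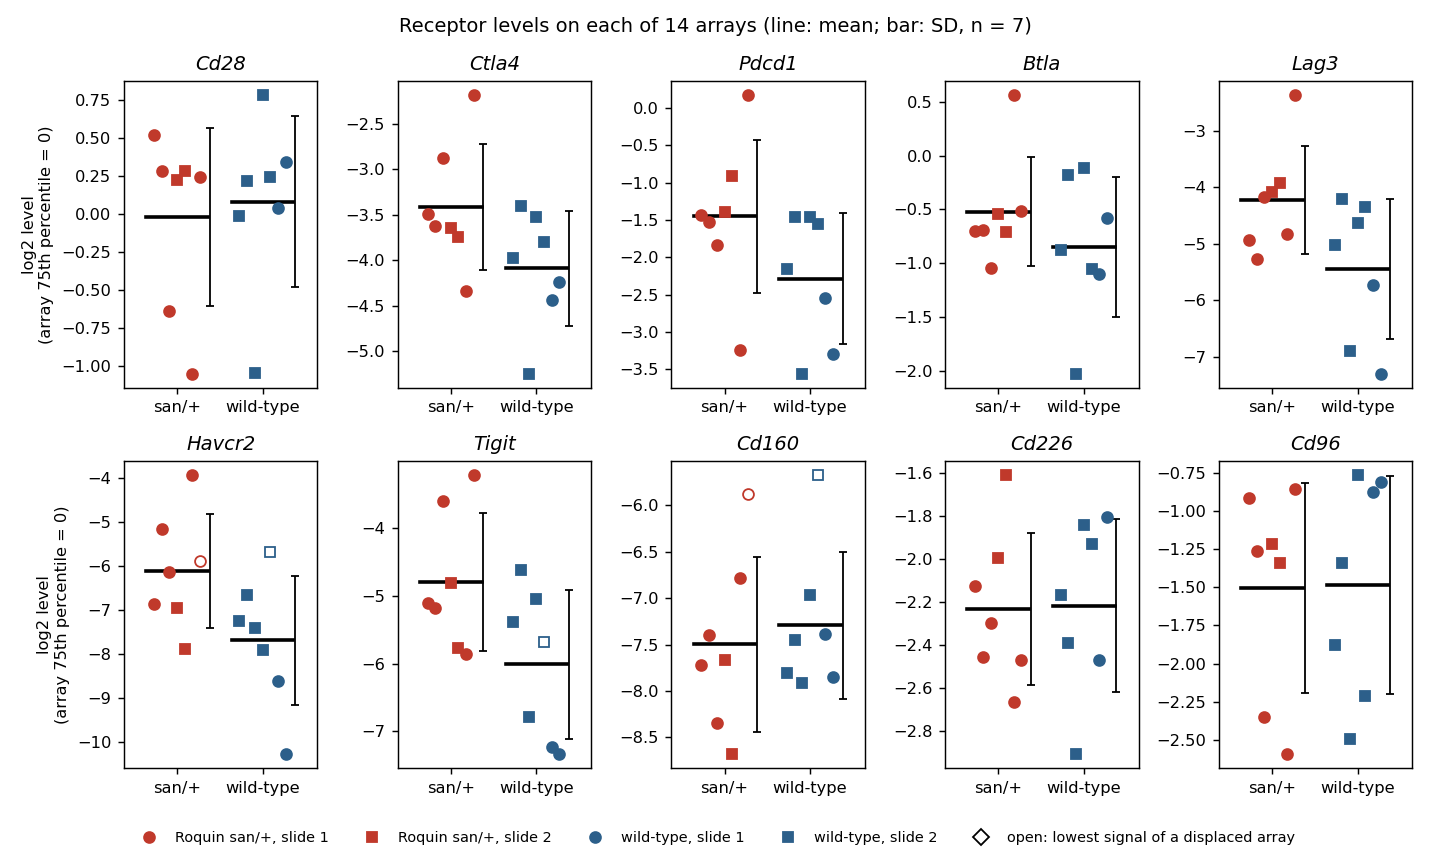
Log2 level of the brightest probe of each receptor gene (vertical axis, 0 at the 75th percentile of the array) on the 7 Roquin san/+ and 7 wild-type arrays, with circles for slide 1 and squares for slide 2, a line at the mean and a bar of 1 SD. Genotypes overlapped for all 10 genes, and Roquin san/+ replicate G was the highest array for Ctla4, Pdcd1, Lag3 and Tigit.

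Among the CD28 family, the activating receptor Cd28 differed little and the inhibitory receptors had positive differences. Cd28, the main co-stimulatory receptor, had levels of -1.05 to 0.52 with a median of 0.24 in Roquin san/+, and of -1.05 to 0.78 with a median of 0.22 in wild-type. Both groups had most arrays near the same level, with Roquin san/+ replicates C and F and wild-type replicate C well below. The difference was -0.10 (SE 0.30, 95% confidence interval -0.74 to 0.54, limma adjusted p 0.969). The dimmer Cd28 probe had a difference of 0.13 (SE 0.37).

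Pdcd1 encodes PD-1, which recruits the phosphatase SHP-2 after binding PD-L1 or PD-L2. Its level ran from -3.24 to 0.17 with a median of -1.44 in Roquin san/+, and in wild-type from -3.56 to -1.46 (median -2.15). Of the Roquin san/+ arrays 4 lay above every wild-type array, and replicate F was the exception, at -3.24 against -1.84 or higher on the others. The mean was 1.79-fold higher in Roquin san/+, a log2 difference of 0.84 (SE 0.48, interval -0.18 to 1.85, limma adjusted p 0.884, two-sided exact permutation p 0.122). Without replicate F, whose B-cell, myeloid and NK-cell markers stood out, the difference was 1.13 (unadjusted limma p 0.0183, adjusted 0.986). Without displaced replicate G, the highest array, it was 0.56 (p 0.219, adjusted 0.952). The part of other cells in the value of replicate F was not tested, and in bulk RNA fewer cells of a type and less RNA per cell cannot be told apart.

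Ctla4, which competes with Cd28 for its ligands, ran from -4.34 to -2.18 with a median of -3.62 in Roquin san/+, and in wild-type from -5.25 to -3.40 (median -3.98). Roquin san/+ replicates C and G were above every wild-type array, and replicate F was again the lowest of its group. Replicate C is the array with a weak signal and high summed levels of myeloid markers and of Siglech. The part of these in its Ctla4 value was not tested. The mean was 1.60-fold higher in Roquin san/+, a log2 difference of 0.68 (SE 0.34, interval -0.05 to 1.40, limma adjusted p 0.884, exact permutation p 0.0816). Without replicate F it was 0.83 (unadjusted limma p 0.0266, adjusted 0.986), and without replicate G, again the highest array, 0.47 (p 0.147, adjusted 0.952).

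Btla, an inhibitory receptor that B-cells carry as well, ran from -1.04 to 0.56 with a median of -0.69 in Roquin san/+, and in wild-type from -2.03 to -0.12 (median -0.88). Wild-type replicates C, E and F lay below every Roquin san/+ array, and the highest array of all was Roquin san/+ replicate F. The difference was 0.33 (SE 0.30, interval -0.32 to 0.98, limma adjusted p 0.884), and the dimmer probe gave 0.32 (SE 0.28). Without replicate F it was 0.15, and without wild-type replicate C, the lowest array, it was 0.13.

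**Figure D2:**
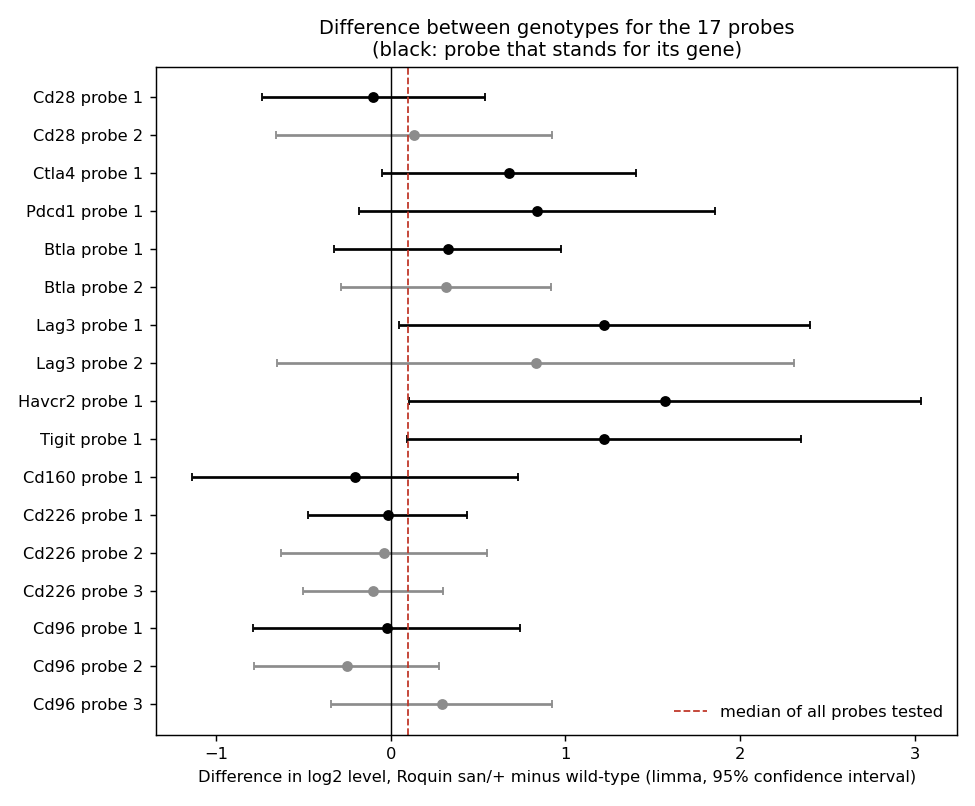
Difference in log2 level between Roquin san/+ and wild-type (horizontal axis) for each of the 17 receptor probes (rows), with 95% confidence intervals of the limma fit, n = 7 arrays each. The intervals of Lag3 probe 1, Havcr2 and Tigit lie above 0 before adjustment, the other 14 cross it, and the dashed line marks the median over all probes tested, 0.10.

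The other inhibitory receptors split into Lag3 and Havcr2, with the largest differences of the 10 genes together with Tigit, and Cd160, whose difference was smaller than its error. Lag3 encodes a CD4-like receptor that binds class II molecules and FGL1. Its brighter probe had levels of -5.28 to -2.36 with a median of -4.17 in Roquin san/+, and of -7.31 to -4.21 with a median of -5.02 in wild-type. Wild-type replicates C, F and G lay below every Roquin san/+ array, and 4 Roquin san/+ arrays lay above every wild-type array. The mean was 2.33-fold higher in Roquin san/+, a log2 difference of 1.22 (SE 0.55, interval 0.05 to 2.40, unadjusted limma p 0.0427, adjusted 0.884, exact permutation p 0.0664). Without displaced replicate G, the highest array, the difference was 0.91. With each array left out in turn the unadjusted limma p ran from 0.0232 to 0.0959.

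The dimmer Lag3 probe was well above background on 4 of 6 well-placed Roquin san/+ arrays and 3 of 6 wild-type arrays. Its difference was 0.83 (SE 0.69). With the background of each array taken from its own negative control spots after the move, it was 1.28 and that of the brighter probe 1.20 (unadjusted limma p 0.0472 and 0.0395).

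Havcr2 encodes TIM-3, which is also carried by myeloid cells. Its level ran from -7.89 to -3.93 with a median of -6.14 in Roquin san/+, and in wild-type from -10.28 to -5.67 (median -7.41). Roquin san/+ replicates B and F were above every wild-type array, and the highest wild-type value is the lowest signal of displaced replicate E and not a measured level. The difference was 1.57 (SE 0.69, interval 0.10 to 3.03, unadjusted limma p 0.0374, adjusted 0.884, exact permutation p 0.0554), or 2.97-fold. The probe was well above background on 5 of 6 well-placed Roquin san/+ arrays and 4 of 6 wild-type arrays. Of the myeloid genes 9 of 9 were higher on average in Roquin san/+, against 63.4% of all probes tested. Every one of them was well above background on some array, and 1 had an unadjusted limma p below 0.05. Their summed log2 levels were 4.10 to 6.68 against 3.73 to 5.28. Roquin san/+ replicates C and F were both at 6.68, but in part through different genes. All Tfh, regulatory T-cell and B-cell markers had a higher mean as well. Without replicate F the Havcr2 difference was 1.20 (unadjusted limma p 0.0846), and the part of myeloid RNA in it was not tested.

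Cd160, a receptor of NK-cells and some T-cells that binds HVEM, was dim on all arrays. Leaving out the values at the lowest signal of the displaced arrays, it ran from -8.68 to -6.78 in Roquin san/+ and from -7.92 to -6.96 in wild-type. The range of wild-type fell inside that of Roquin san/+. The difference over all arrays was -0.20 (SE 0.44, interval -1.13 to 0.73, limma adjusted p 0.955).

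Tigit shares nectin-family ligands with Cd226, an activating receptor, and with Cd96. Over all arrays the log2 difference was larger for Tigit than for these, but within slide 2 it was 0.21 for Tigit, 0.45 for Cd226 and 0.46 for Cd96, and no test compared the 3 genes. Tigit ran from -5.85 to -3.21 with a median of -5.10 in Roquin san/+, and in wild-type from -7.34 to -4.61 (median -5.67). That median is the lowest signal of displaced wild-type replicate E and not a measured level. Roquin san/+ replicates C and G were above every wild-type array, and wild-type replicates C, F and G below every Roquin san/+ array. Roquin san/+ replicate C had a weak signal and high summed levels of myeloid markers and of Siglech. The part of these in its Tigit value was not tested. The mean was 2.33-fold higher in Roquin san/+, a log2 difference of 1.22 (SE 0.53, interval 0.10 to 2.35, unadjusted limma p 0.0353, adjusted 0.884, exact permutation p 0.0554). Without displaced replicate G, the highest array, the difference was 0.96. With each array left out in turn the unadjusted limma p ran from 0.0148 to 0.0793.

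Cd226 ran from -2.66 to -1.61 with a median of -2.30 in Roquin san/+, and in wild-type from -2.91 to -1.80 (median -2.17). These are narrow ranges that overlap, and the difference was -0.02 (SE 0.21, interval -0.47 to 0.44). Its 3 probes gave differences of -0.02, -0.04 and -0.10.

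Cd96 ran from -2.59 to -0.86 with a median of -1.27 in Roquin san/+, and in wild-type from -2.49 to -0.77 (median -1.34). The groups covered nearly the same range, with Roquin san/+ replicates C and F and wild-type replicates C and E lowest. The difference was -0.02 (SE 0.36, interval -0.79 to 0.74). The other Cd96 probes gave -0.25 (SE 0.25) and 0.29 (SE 0.30), so its probes disagreed in direction within their errors.

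Because slide and genotype were linked in part, the differences were also taken within each slide. Lag3, Pdcd1 and Ctla4 were higher in Roquin san/+ on both slides, by 2.20 and 1.01 for the brighter Lag3 probe, by 1.34 and 0.88 for Pdcd1 and by 1.03 and 0.30 for Ctla4 on slides 1 and 2. Tigit differed by 2.70 on slide 1 and 0.21 on slide 2. Its slide 1 value rests on wild-type replicates F and G, the lowest of all arrays for Tigit, and its slide 2 value includes the lowest signal of displaced wild-type replicate E. With the background from negative controls these were 2.48 and 0.26.

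Havcr2 was measured only in part within slides. Neither wild-type array of slide 1 was well above background. With each of them set to the higher of its own value and its lowest level well above background, Roquin san/+ was 6.64-fold higher. This is not a lower bound, because Roquin san/+ replicates C and G were not well above background either. Replicate G stood at the lowest signal of its displaced array. On slide 2 wild-type replicate E stands at its lowest signal, and the difference was -0.45 with that value and 0.0896 with the background from negative controls.

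The difference between the slides was itself tested with a genotype by slide term in limma, a test chosen after these values were seen. It came to 2.49 for Tigit (SE 0.99, unadjusted p 0.0267, adjusted 0.418) and to 1.19 for the brighter Lag3 probe (SE 1.16, p 0.324). With the background from negative controls the term for Tigit was 2.22 (SE 0.92, unadjusted limma p 0.0323, adjusted 0.640). Of the 17 receptor probes 3 had an unadjusted p below 0.05, against 11.9% of all probes tested, but those of Havcr2 and of the dimmer Lag3 probe rest on wild-type values that were not well above background on slide 1 and on the lowest signal of replicate E on slide 2, so no value is given for them. For Pdcd1 the term was 0.46 (SE 1.06) and for Ctla4 0.74 (SE 0.78).

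With slide as a block the differences of Lag3 (1.61, unadjusted limma p 0.0158), Tigit (1.46, p 0.0272) and Havcr2 (1.70, p 0.0478) were below 0.05 before adjustment, 3 of 17 probes against 1.19% of all, and Pdcd1 was at 1.11 (p 0.0503). Permuting genotypes within slides over all 441 arrangements gave a two-sided exact p of 0.0272 for Lag3, 0.0408 for Tigit, 0.0612 for Pdcd1 and 0.0658 for Havcr2. The smallest p these arrangements allow is 0.00227.

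Without both displaced arrays 1 of 17 probes, that of Havcr2 (1.86, unadjusted limma p 0.0216), was below 0.05 and higher, against 5.97% of all probes. Lag3 was then 2.14-fold higher (unadjusted p 0.0526), and the log2 difference was 1.02 for Tigit, 0.69 for Pdcd1 and 0.52 for Ctla4. With the background from negative controls 4 of 17 were, the probes of Havcr2 (1.93), Tigit (1.16) and both of Lag3, against 5.33%. Adjusted limma p-values stayed above 0.05 in each of these fits.

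**Figure D3:**
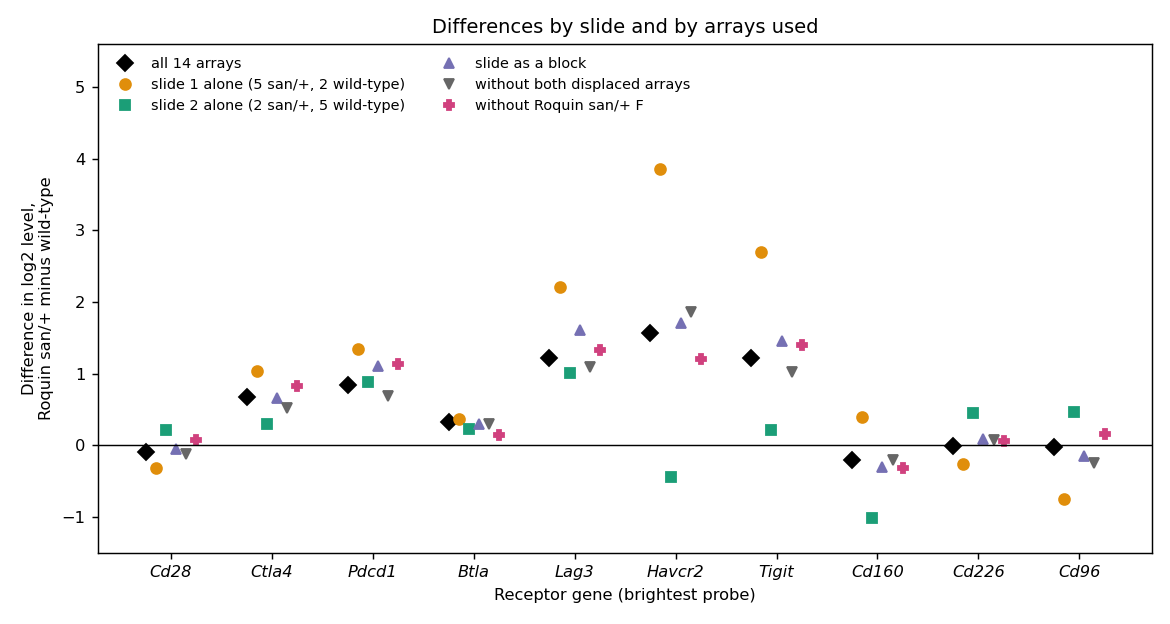
Difference in log2 level, Roquin san/+ minus wild-type (vertical axis), for the brightest probe of each receptor gene over all 14 arrays, within each slide, with slide as a block, and with arrays left out. Lag3, Pdcd1 and Ctla4 were above 0 in each of these, while the Havcr2 values within slides were measured only in part, as its wild-type arrays were not well above background on slide 1 and replicate E was at its lowest signal on slide 2.

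Over the 14 arrays 4 inhibitory receptors, Ctla4, Pdcd1, Lag3 and Tigit, varied together. These 4 were picked by the same correlations. Pearson's r over the 6 pairs ran from 0.76 to 0.89 and Spearman's rho from 0.67 to 0.92. With Benjamini-Hochberg adjustment over all 45 pairs of receptors the permutation p-values of r were 9e-04 to 0.0125 (100000 resamples), and those of rho 4.5e-04 to 0.0619. The highest r was that of Ctla4 with Tigit, 0.89 (permutation p 2e-05, rho 0.92), and the next that of Pdcd1 with Lag3, 0.87 (permutation p 1.1e-04, rho 0.80).

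The relation was also seen within genotypes, within slides and without the displaced arrays. After each genotype's mean had been taken off, r over the 6 pairs was 0.69 to 0.85, without both displaced arrays 0.67 to 0.85, on slide 1 0.80 to 0.93 and on slide 2 0.71 to 0.98. The slide 2 values do not set these 4 genes apart. There r was also 0.93 for Cd28 with Ctla4 and 0.95 for Btla with Ctla4, though 0.14 for Havcr2 with Ctla4. On slide 1 it was 0.16 for Cd28 with Ctla4 and -0.24 for Btla with Ctla4. Without the 2 arrays farthest from the median r was 0.59 to 0.90. Wild-type replicate C was among the 3 lowest arrays and Roquin san/+ replicate G the highest for each of the 4 genes.

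Cd28 and Cd96 followed the T-cell markers. The summed level of 7 T-cell markers was at 3.34 to 3.70 on Roquin san/+ replicates C and F and wild-type replicate C and at 4.46 or higher on the other 11 arrays, and the same 3 arrays were the lowest for Cd28. Since these arrays form a group of their own, r is given for the other 11: it was 0.58 for Cd28 and 0.66 for Cd96 with the T-cell markers, and 0.47 between Cd28 and Cd96. All 7 T-cell markers had a lower mean in Roquin san/+, with a median difference of -0.16. So did all 6 naive T-cell markers tested, with a median of -0.24. None of either list had an unadjusted limma p below 0.05. Over all probes tested 63.4% had a higher mean.

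The receptors were also set against the summed levels of 6 marker lists, 60 relations in all, chosen after the results were known. Tfh markers (Cxcr5, Bcl6, Il21, Sh2d1a, Ascl2, Tox2 and Icos) had an r of 0.83 with Pdcd1 (permutation p 2.6e-04, adjusted 0.00312, rho 0.89), of 0.87 with Lag3 (p 1.4e-04, adjusted 0.0021, rho 0.81), of 0.83 with Ctla4 (p 8.4e-04, adjusted 0.0072, rho 0.69) and of 0.74 with Tigit (p 0.00281, adjusted 0.017, rho 0.64). Without the 2 arrays farthest from the median of the marker level (wild-type replicate C and Roquin san/+ replicate G) these came to 0.63, 0.72, 0.46 and 0.59. Btla had an r of 0.67 with Tfh markers (permutation p 0.0136, adjusted 0.0481, rho 0.67), and of 0.52 without those arrays. Within slides r was 0.78 and 0.98 for Pdcd1, and 0.86 and 0.97 for Lag3. The slide 2 values are not particular to Tfh markers or to these receptors. With T-cell markers r on slide 2 was 0.95 for Pdcd1 and 0.90 for Lag3, against 0.29 and -0.25 on slide 1. Cd28 had an r of 0.93 with Tfh markers on slide 2 and of 0.04 on slide 1. All 7 Tfh genes were higher on average in Roquin san/+, with summed levels of 1.21 to 2.60 against -0.07 to 1.71, and 2 of them, Ascl2 and Icos, had an unadjusted limma p below 0.05. Over all probes tested 63.4% had a higher mean and 2.95% were higher with such a p.

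Regulatory T-cell markers (Foxp3, Il2ra, Ikzf2, Tnfrsf18, Ikzf4 and Nrp1) had their highest r with Pdcd1, 0.90 (permutation p 1e-05, the smallest these resamples can give, adjusted 6e-04, rho 0.89), and one of 0.84 with Ctla4 (p 3.5e-04, adjusted 0.0035, rho 0.80). Without the 2 arrays farthest from the median, wild-type replicate C and Roquin san/+ replicate F, these were 0.86 and 0.77. For Lag3 r was 0.71 (p 0.00595, adjusted 0.0275, rho 0.77) and 0.80 without those arrays. Pdcd1, Ctla4 and Lag3 thus ran with both lists, and the arrays do not tell the lists apart.

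Havcr2 had its highest r with markers of B-cells and myeloid cells. It was 0.74 with B-cell markers (permutation p 0.00283, adjusted 0.017, rho 0.69) and 0.59 with myeloid markers (p 0.0297, adjusted 0.0816, rho 0.61). With B-cell markers it was 0.85 on slide 1 and 0.29 on slide 2, and 0.70 without the 2 arrays farthest from the median of the markers. With myeloid markers it was 0.63 on slide 1 and 0.25 on slide 2. Without the 2 arrays farthest from their median, Roquin san/+ replicates F and C, it was 0.40. All 8 B-cell genes were higher on average in Roquin san/+, against 63.4% of all probes tested. Their summed levels were -1.02 to 4.83 against -1.75 to 2.95, or -1.02 to 1.64 with replicate F left out.

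**Figure D4:**
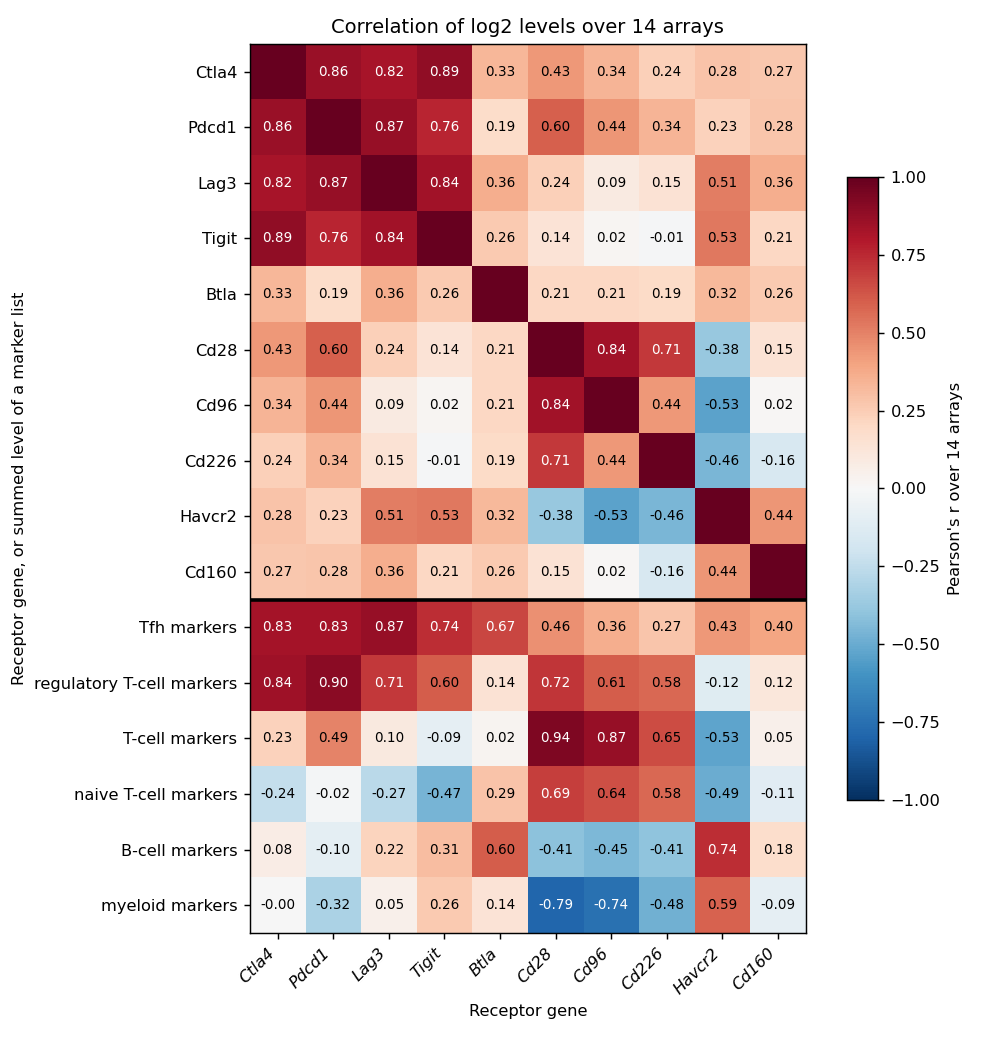
Pearson's r over 14 arrays between the log2 levels of the 10 receptor genes (upper block) and between each receptor and the summed level of 6 marker lists (lower block), coloured from -1 to 1. Ctla4, Pdcd1, Lag3 and Tigit form a block of 0.76 to 0.89 and share high values with Tfh markers, for which Btla is at 0.67. With regulatory T-cell markers Pdcd1 is at 0.90, Ctla4 at 0.84, Lag3 at 0.71 and Tigit at 0.60. The values of Cd28 and Cd96 rest in large part on 3 arrays low in T-cell markers.

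**Figure D5:**
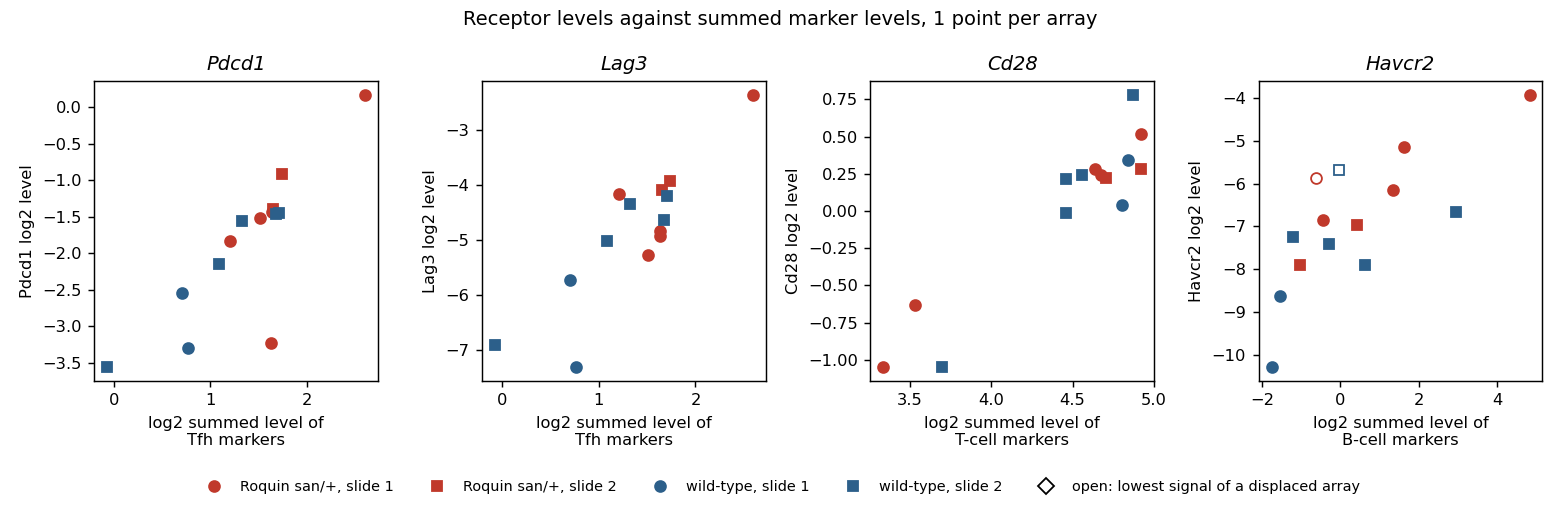
Log2 level of Pdcd1, Lag3, Cd28 and Havcr2 (vertical axes) against the log2 summed level of Tfh, Tfh, T-cell and B-cell markers (horizontal axes), with 1 point for each of the 14 arrays and open points at the lowest signal of a displaced array. Pdcd1 and Lag3 follow the Tfh markers except for Roquin san/+ replicate F, which lies low for Pdcd1 at -3.24, and 3 arrays stand apart in the Cd28 panel.

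The genes whose level followed each receptor most closely over the 14 arrays were taken from all probes tested. Pdcd1 was closest to Maf (r 0.95), a transcription factor of Tfh cells, Aplp1 (0.95) and Nrp1 (0.95). Ctla4 was closest to Map6 (0.98), Arc (0.97) and F730043M19Rik (0.97), Tigit to Tiam1 (0.96), Coro2b (0.96) and Gm4841 (0.95), and Lag3 to Spock2 (0.95), Ttbk1 (0.94) and 8030451A03Rik (0.92). Havcr2 was closest to Ier3 (0.97), Itgb5 (0.92) and Eomes (0.92). Cd28 was closest to Rab37 (0.96), Cdon (0.96) and Cd6 (0.96), a T-cell surface receptor, Cd96 to the transcript ENSMUST00000103291 (0.98), Tnfrsf26 (0.96) and Trim32 (0.96), Cd226 to Plcxd2 (0.93), Rab3a (0.93) and 2900005J15Rik (0.91), and Btla to Mgrn1 (0.97), Rel (0.95) and Rabep2 (0.95). For Cd160 it was Ap3m2 (0.96), followed by unnamed transcripts. These are the highest of the correlations with all probes tested over 14 arrays and carry no test.

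Among genes that work with the receptors, 14 were transcription factors that act on inhibitory receptor genes. Of these 13 had a higher mean in Roquin san/+, against 63.4% of all probes tested, with a median difference of 0.46 against 0.10 over all probes. Their summed levels overlapped, at 2.41 to 3.28 against 1.61 to 2.85, and 4 had an unadjusted limma p below 0.05 against 2.95% of all probes. Eomes, which is also an NK-cell marker, differed by 1.06 (SE 0.34, unadjusted p 0.00708, adjusted 0.884) and Irf4, induced by antigen receptor signals in T-cells and B-cells, by 0.95 (SE 0.30, p 0.00686, adjusted 0.884). Both were highest of all 14 arrays on Roquin san/+ replicate F, the array with the highest B-cell, myeloid and NK-cell markers, and without it they differed by 0.86 (unadjusted limma p 0.0143, adjusted 0.986) and 0.81 (p 0.0159). The other pair were Batf at 0.75 and Nr4a3 at 0.57. Tcf7, which naive T-cells express, was the factor with a negative difference, -0.21. None of the 14 had an adjusted p below 0.05.

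Of 11 ligand genes 9 were higher, with a median of 0.31, against 63.4% and 0.10 over all probes. Cd86, the ligand of CD28 and CTLA-4 on B-cells and myeloid cells, differed by 0.71 (SE 0.25, unadjusted limma p 0.0138, adjusted 0.884; 0.54 without replicate F, where it was highest) and Pdcd1lg2, which encodes PD-L2, by 0.47 (SE 0.26, p 0.0919). B-cell and myeloid markers moved the same way, and their part in these ligands was not tested.

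Of 14 signalling partners, such as Lck and Ptpn11, 8 had a higher mean and 6 a lower one, with a median of 0.06 and none with an unadjusted p below 0.05. Ptpn11, which encodes SHP-2, differed by 0.34 (SE 0.19, p 0.101) and the kinase Fyn by 0.31 (SE 0.29, p 0.300). Of 10 genes for traffic and shedding of the receptors 9 were tested, 4 higher and 5 lower, with a median of -0.06. Adam17, a protease that sheds LAG-3 and other receptors, differed by 0.16 (SE 0.15, p 0.303) and Trat1, which carries CTLA-4 to the surface, by -0.40 (SE 0.38, p 0.321).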

How the data were processed

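RNA of CD4+ T-cells was read on 14 one-colour arrays, 7 Roquin san/+ and 7 wild-type, grouped by genotype label. The authors deposited spot intensities from Agilent Feature Extraction 10.5.1.1, with a processed signal already background-subtracted, and a log2 table of the same arrays, whose method is not given in the sources used here. On replicate G of Roquin san/+ and replicate E of wild-type, spots lay 2 grid rows off their probe names, found by trying 169 shifts of at most 6 rows and columns, and were moved. Control spots and outlier flags were left out, and spots of a probe were averaged on the log2 scale. The 75th percentile of each array was subtracted, taken over 10320 probes that were well above background everywhere. The fit used lmFit and eBayes of limma 3.58.1 (R 4.3.3) on 32831 probes, with Benjamini-Hochberg adjustment and a threshold of 0.05. This left out 283 probes that passed the filter but lacked a value. The number of arrays limits the precision.

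The receptors named were all 10 members, the 2 genes of lowest p in each list of related genes (with Batf, Nr4a3, Tcf7, Ascl2 and Icos named after their values were seen) and the 3 genes that followed each receptor most closely. The members and the lists were chosen with earlier results of these data known. Alternatives covered the background, normalization, filter, slide, replicate letter, the authors' log2 values, the variance model and leaving out arrays. The test was checked on simulated data. Python 3.11.15, numpy 2.4.6 and scipy 1.17.1 were used for permutations.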

Additional observations from a re-analysis of the deposited data

Results flagged for a closer look

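Of the 20 groups of 7 arrays examined, 2 had an array far from the others by Dixon's criterion, where chance flags about 1 in 20. Btla was at 0.56 on Roquin san/+ replicate F, against -0.51 on the next highest array of that group, a gap of 0.669 of the group's range. B-cell markers, whose cells carry Btla too, had a summed log2 level of 4.83 on the same array and of -1.02 to 1.64 on the other Roquin san/+ arrays. Their part in the Btla value was not tested.

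Cd160 was at -5.67 on wild-type replicate E, against -6.96 on the next highest array of that group, a gap of 0.573 of the range. The value is the lowest signal of that displaced array and not a measured level. With the background taken from the negative controls of the array it was -7.87.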

How the results depend on the processing

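The count of probes called between genotypes was 0 in every fit, the replicate block, slide as a block, quantile normalization and the negative-control background, an alternative chosen after seeing the data, included. The counts for the receptors and for the lists of related genes were 0 as well. With the replicate block, which pairs arrays by letter, Lag3 differed by 1.22 (unadjusted limma p 0.101), Tigit by 1.22 (p 0.0731) and Havcr2 by 1.57 (p 0.0801). Same-lettered arrays had correlations of -0.28 to 0.41 of their deviations from the group means. No pairing by letter was visible in these values, which cannot exclude one. Ctla4, Pdcd1, Btla, Lag3 and Tigit kept a positive difference in each setting that gave one. Havcr2 was negative on slide 2 alone (-0.45), where a value at the lowest signal of displaced wild-type replicate E enters, and 0.0896 there with the negative-control background, so this is not a measured reversal. Cd28 (-0.10) was reversed on slide 2 alone (0.22), without both displaced arrays and replicate F (0.0811) and with the mean of its probes (0.0169). Cd160 (-0.20) was reversed with normexp (0.40) and on slide 1 alone (0.39, or -0.41 with the negative-control background). Cd226 (-0.02) was reversed with normexp (0.0215), with slide as a block and permuted within slides (0.0896), on slide 2 alone (0.45), without both displaced arrays (0.0715) and without these and replicate F (0.17). Cd96 (-0.02) was reversed with normexp (0.0623), on slide 2 alone (0.46), with the negative-control background (0.0283) and with the mean of its probes (0.00584). The cause of these changes was not tested. With each array left out in turn the difference was -0.29 to 0.0721 for Cd28, -0.47 to 0.0677 for Cd160, -0.13 to 0.0569 for Cd226 and -0.19 to 0.16 for Cd96. It gave 0.13 to 0.45 for Btla, 0.47 to 0.83 for Ctla4, 0.56 to 1.13 for Pdcd1, 0.91 to 1.43 for Lag3, 0.96 to 1.46 for Tigit and 1.14 to 1.90 for Havcr2. The median difference of all probes tested was 0.28 with normexp, -0.08 with quantile normalization and -0.07 with the 75th percentile over all probes, against 0.10. The unadjusted p stayed below 0.05 in 16 of 34 alternatives for Lag3, 22 of 34 for Tigit and 18 of 32 for Havcr2, the within-slide fits with the negative-control background not counted. On the authors' log2 values Lag3 differed by 0.74 (unadjusted limma p 0.152), Tigit by 0.72 (p 0.0880) and Havcr2 by 0.94 (p 0.0281), and with quantile normalization Lag3 by 0.84 (p 0.145) and Havcr2 by 0.96 (p 0.176). Signal over background limits Havcr2, Cd160 and the dimmer Lag3 probe most.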
